A study of Sus scrofa with 12 samples.

Results

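The laminin and integrin chain genes encode the subunits of the laminins, which are proteins of basement membranes, and of the integrins, which are cell surface receptors for matrix and for other cells. Members were chosen by name in the count table: LAMA, LAMB or LAMC followed by a single digit, or a name that begins with ITGA or ITGB and belongs to an integrin chain. The rule found 37 of 20674 genes, 12 laminin chains and 25 integrin chains. All 37 passed the filter on low counts, which kept 15351 genes for testing. ITGAX, a further alpha chain of leukocyte integrins, was not analysed here.

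The libraries were made from polyA RNA of the endometrium of Landrace × Yorkshire sows, fed 1 of 4 diets from breeding and over a gestation of 114 days. The high-fiber diets held less corn than the low-fiber diets and contained soybean bran and beet pulp, which the low-fiber diets lacked. N-carbamylglutamate (NCG), the other dietary factor, is an analog of N-acetylglutamate, the cofactor that activates carbamoyl phosphate synthetase and with it the synthesis of arginine. The groups, with 3 libraries each, were L-N, the low-fiber control with 3.73% crude fiber and no NCG (LF in the design text of the series), L+N with 3.73% crude fiber and 0.05% NCG, H-N with 7.46% crude fiber and no NCG (HF in that text), and H+N with 7.46% crude fiber and 0.05% NCG. The paper reports endometrium from several sows of each group, but its text does not tie the libraries to them. The labels do not say whether the libraries of a group come from separate sows, so the p-values below measure the spread between these samples.

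The libraries of a group are numbered 1 to 3 by replicate, and values are given in that order. Total counts were 15797001, 16916495 and 15828950 in L-N, and 19309724, 16619226 and 14701681 in L+N. They were 18549636, 14369781 and 15332896 in H-N and 15155660, 17714918 and 17012856 in H+N. The 37 members together took between 0.455% and 0.568% of the counts of a library.

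A laminin is a trimer of an alpha, a beta and a gamma chain, and the alpha chain carries the domains that cell surface receptors bind. An integrin is a pair of an alpha and a beta chain, in which the alpha chain largely sets the ligand. In many integrins, though not all, the beta chain connects the receptor to actin through talin and kindlin and to kinases that act upstream of PI3K and Akt. In the uterus, laminins lie under the luminal and glandular epithelium, around vessels and around smooth muscle, and integrins of the luminal surface take part in the attachment of the conceptus. Placentation in pigs is epitheliochorial, so that the uterine epithelium remains in place beside the trophoblast. The pathway annotation in the count table puts 29 of the 37 members in each of PI3K-Akt signaling, ECM-receptor interaction and focal adhesion, and the remaining 8 in none of them.

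L-N library 1 and H-N library 3 stood apart from the others of their groups. L-N library 1 lay more than 1.5-fold beyond both other L-N libraries in 12 of the 37 members, on the scale of CPM, which are counts relative to the TMM-scaled library total. It was above them in ITGA7, ITGB4, LAMA1 and LAMB2 and below them in ITGA11, ITGA4, ITGAD, ITGAL, ITGAM, ITGB2, ITGB3 and LAMB4. H-N library 3 was above both other H-N libraries in 11 members, with the epithelial chains LAMA3, LAMB3 and ITGB6 among them, and below them in LAMB4. ITGB6, for example, measured 4.66, 1.94 and 25.6 CPM in H-N. Markers of other cell types also stood apart in both libraries. The summed CPM of 10 smooth muscle markers was 6484, 1994 and 2548 in L-N, with MYH11 the most abundant at 1469, 367 and 679. The sum over 8 neutrophil markers was 13.9, 7.63 and 174 CPM in H-N. Their part in the member values was not tested, and counts of members are given below with and without both libraries.

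In a principal component analysis of the 37 members, the first component held 39.2% of the variance and the second 29.5%. The 3 L-N libraries lay between -3.94 and -3.34 on the second component and the other 9 between -0.61 and 2.30. The first component spread the L-N libraries widely, from -3.15 for library 1 to 3.40 for library 2, while the 3 L+N libraries lay close to one another, between 2.57 and 2.88.

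Levels between genes are compared by the deposited FPKM, which divides by gene length. ITGB1, the beta chain shared by most matrix receptors, had the highest mean of the 37 members at 117 FPKM over the 12 libraries. ITGB5 followed with 76.4, ITGA6 with 66.2, LAMC1 with 65.0 and LAMB1 with 54.6 FPKM. A further 16 members lay between 10 and 50, among them LAMC3 at 47.6, ITGAV at 40.1, LAMB2 at 38.4, ITGA8 at 34.7 and LAMA4 at 33.1 FPKM. Another 14 lay between 1 and 10, and ITGA2B, the platelet chain, and LAMA1, an embryonic laminin chain, had means of 0.868 and 0.628 FPKM. LAMC1 and ITGA6 differed by less than the spread between libraries, since each ranged over more than 30 FPKM (53.8 to 88.1 for LAMC1, 43.6 to 96.2 for ITGA6). Spread within groups differed widely between members. The coefficient of variation was 8.63% for ITGB1 and 83.8% for LAMB4, with a median of 21.9% over the members and of 17.2% over all genes tested.

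**Figure D1:**
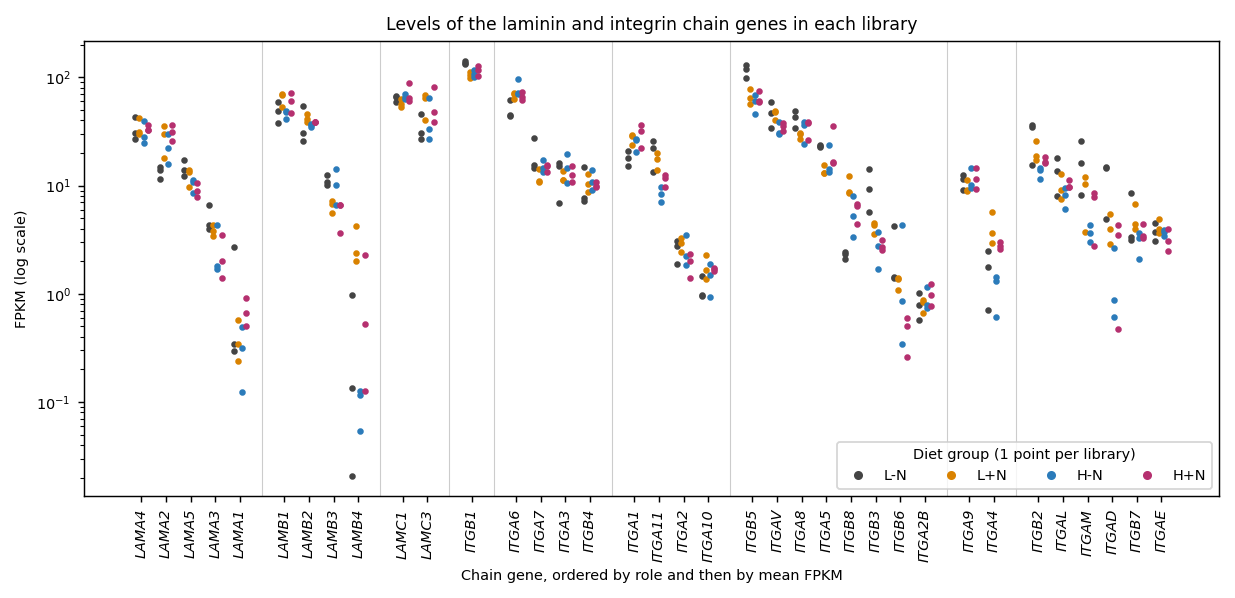
Deposited FPKM (log axis) of 36 of the chain genes in each of the 12 libraries, 1 point per library, coloured by diet group and ordered by role and then by mean FPKM, with lines between roles. ITGB1 lies highest with a mean of 117 FPKM, and LAMB4 spans the widest range among libraries, from 0.0209 to 4.24 FPKM.

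Members that share a chromosome sometimes lie next to each other, in the coordinates of the deposited table (build Sscrofa11.1). LAMB1 and LAMB4 are neighbours on chromosome 9 with 30599 bases and no other gene of the table between them, ITGA1 and ITGA2 on chromosome 16 with 26322 bases, and ITGAD and ITGAM on chromosome 3 with 46942 bases. Each of these 3 pairs runs on 1 strand, and the neighbours can differ in level: LAMB1 averaged 54.6 and LAMB4 1.08 FPKM, and ITGA1 25.1 and ITGA2 2.48 FPKM. Some members overlap another gene of the table: ITGA1 overlaps PELO on the same strand, and ITGAE and ITGA2 overlap GSG2 and MOCS2 on the opposite strand. The paper describes strand-specific libraries, but the strand setting of the counting step is not given, so the counts of such members are uncertain. ITGAD and ITGAM are close paralogs and could share reads.

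Of the 37 members, 14 passed the test in at least 1 of 8 comparisons (37.8%) and 23 in none, where 15.3% of all genes tested passed in at least 1. The 14 were the laminin chains LAMA2, LAMA5, LAMB3 and LAMB4 and 10 integrin chains. Of these 14, 10 carry the PI3K-Akt annotation, beside 29 of all 37 members. Every call below is an adjusted p under 0.05 by the quasi-likelihood test of edgeR, adjusted after Benjamini and Hochberg over the 15351 genes and fitted on all 12 libraries. The L-N libraries serve as the control in 3 of the comparisons, those with L+N, with H-N and with H+N.

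The comparison of H+N with L-N asks what both dietary changes did together. ITGB8 and LAMA2 rose and ITGB5, ITGB3, ITGA11, LAMA5 and LAMB3 fell, 7 of 37 members (18.9%), where 7.97% of all genes tested were called. The 2 that rose stand beside 4.31% of all genes called higher, and the 5 that fell beside 3.66% called lower. The median log2 fold change was -0.31 over the members and 0.02 over all genes tested. The count was 15 without L-N library 1 and H-N library 3 together, a fit that called 14.6% of all genes. Leaving out L-N library 2 gave 2 and leaving out H+N library 3 gave 1, while both L-N library 3 and H+N library 1 gave 0 when left out. Without L-N library 3, 0.0257% of all genes tested were called, and without H+N library 1, 0.00642%. The shares without L-N library 2 or H+N library 3 are not given here. At an unadjusted p under 0.05 the fit on all libraries gave 14 members (37.8%), beside 27.5% of all genes, and DESeq2 called 13 members and 17.5% of all genes. Fitted on only the L-N and H+N libraries, ITGB8 alone was called, and with the replicate number as a block (an added term in the fit) ITGB3, ITGB5 and ITGB8.

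High fiber alone, H-N against L-N, gave 7 members again: ITGB8 rose, and ITGB5, ITGA11, ITGB3 and the leukocyte chains ITGAM, ITGB2 and ITGAD fell. Of all genes tested, 5.27% were called, 1.56% higher and 3.71% lower. The median log2 fold change was -0.38 over the members and 0.03 over all genes. No laminin chain passed, and the smallest adjusted p among those was 0.0961, for LAMA5, while DESeq2 called LAMA5 alone of the laminin chains among its 11 members, beside 13.6% of all genes. Leaving out both libraries that stood apart gave 11 members, beside 12.6% of all genes. Leaving out 1 library gave 1 member without L-N library 2, 0 without L-N library 3 or without H-N library 1, 2 without H-N library 2 and 3 without H-N library 3. It gave 4 without L+N library 1 and 3 without L+N library 2 or H+N library 1, libraries of neither group compared. The share of all genes called in these fits is not given here, so the counts do not tell a loss in the members from a loss in all genes. At an unadjusted p under 0.05 the fit on all libraries gave 15 members (40.5%), beside 24.4% of all genes. Fitted on only the L-N and H-N libraries, 0 members were called, and with the replicate number as a block ITGA11, ITGB3 and ITGB5 were.

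NCG on the low-fiber diet, L+N against L-N, gave 5 members. ITGB8 rose, and ITGB5, ITGB3, ITGB1 and ITGA7 fell, while 9.6% of all genes tested were called, 5.97% higher and 3.63% lower. The median log2 fold change was -0.28 over the members and -0.02 over all genes. No laminin chain passed here in edgeR's test on all libraries, where LAMA2 had an adjusted p of 0.053 and LAMB3 of 0.0697. DESeq2 called both. In edgeR's test LAMA2 was called without L+N library 1, H-N library 1 or H-N library 3. LAMB3 was called without H-N library 2 or H-N library 3, and LAMB4 without L-N library 2. The count was 8 without both libraries that stood apart, beside 15.8% of all genes, and 8 without H-N library 3 alone, beside 10.5%. It was 1 without L-N library 3 or L+N library 2, 2 without L+N library 3, and 3 without L+N library 1 or H+N library 1. These lower counts lack the share of all genes called, so a loss particular to the members cannot be read from them. With no filter and with the replicate number as a block, the calls of ITGB1 and ITGA7 were lost, and with the block ITGA5 was gained. On only the L-N and L+N libraries the call of ITGA7 was lost, and ITGA5, ITGA8 and LAMB3 were gained.

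The mean difference made by NCG over both fiber levels, taken as both groups with NCG against both without, gave another set of 5. ITGB8, ITGA4, LAMB4 and LAMA2 rose and LAMB3 fell, beside 7.27% of all genes called, 5.67% higher and 1.6% lower. In each of the 5 the libraries with and without NCG overlapped. The median log2 fold change was -0.10 over the members and -0.03 over all genes. The count was 4 without both libraries that stood apart, beside 8.14% of all genes. It was 1 without L+N library 2, 2 without L-N library 3 or H+N library 1, and 3 without L+N library 1, L+N library 3, H-N library 1, H-N library 2 or H+N library 3. Here too the share of all genes called in each fit is not given, so no loss particular to the members can be read. With the replicate number as a block, ITGB8 and LAMB3 were called.

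**Figure D2:**
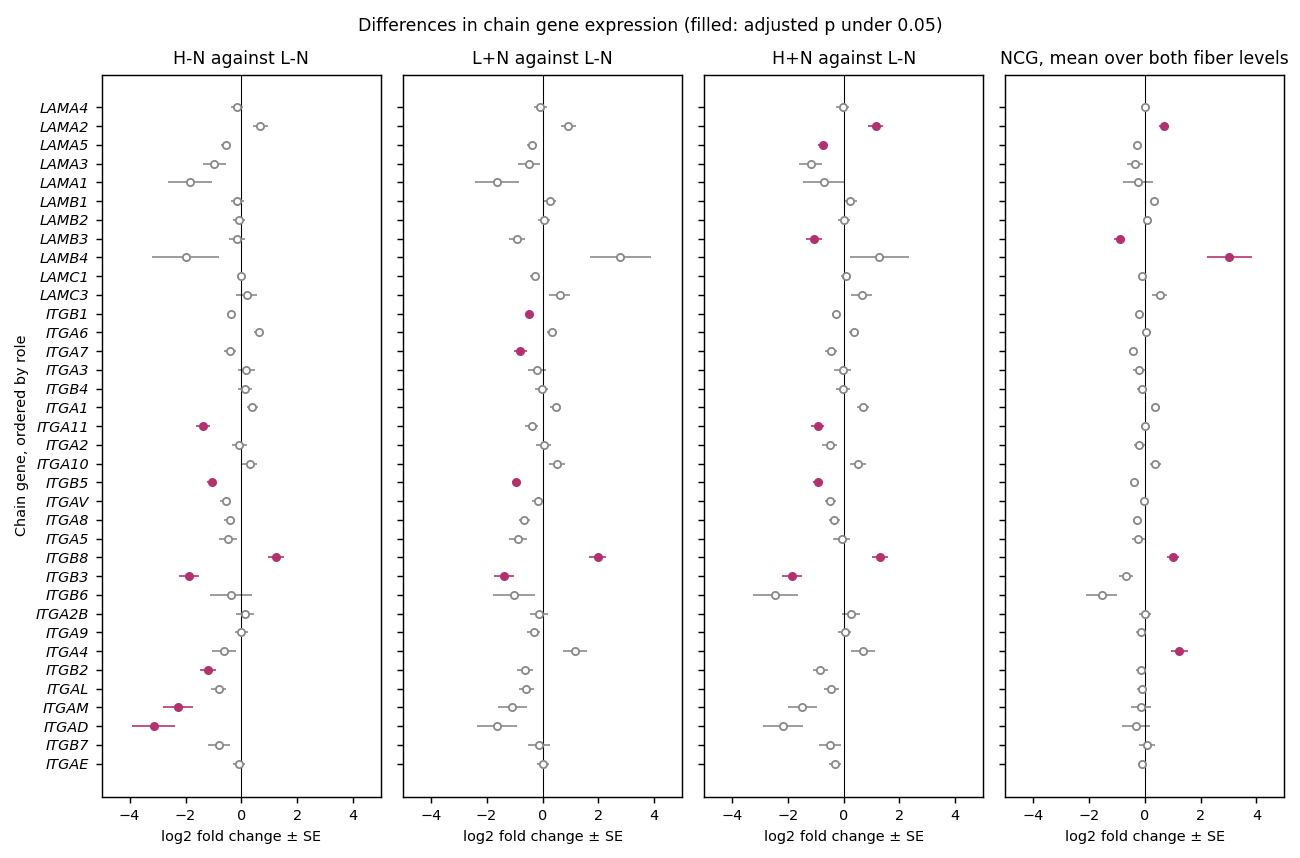
Log2 fold change with its standard error (horizontal axis) of 36 of the chain genes in each of the other 3 groups against L-N and for NCG as a mean over both fiber levels, with filled points for adjusted p under 0.05. ITGB8 lies to the right of 0 and ITGB3 and ITGB5 to the left in each of the 3 comparisons with L-N, which share the L-N libraries.

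Among the laminin alpha chains, LAMA2 is the chain of muscle, stromal and nerve basement membranes (gene 100154420, chromosome 1, bases 33765412 to 34359741). It measured 156, 135 and 175 CPM in L-N, 185, 321 and 375 in L+N, 317, 246 and 182 in H-N, and 398, 273 and 362 in H+N. The L-N libraries were the 3 lowest of the 12, so L-N overlapped with none of the other groups, and L+N, H-N and H+N overlapped with one another. In H+N against L-N the log2 fold change was 1.15 (SE 0.269, adjusted p 0.0308), higher in each of the 3 libraries. As a mean over both fiber levels it was 0.69 with NCG (SE 0.189, adjusted p 0.0488). It was 0.92 on the low-fiber and 0.47 on the high-fiber diet, neither of them called in edgeR's test on all libraries. DESeq2 called the difference on the low-fiber diet. The call in H+N was lost without L-N library 2, L-N library 3, H+N library 1 or H+N library 3 (adjusted p 0.0752 to 0.102). The call for NCG was lost without any of 9 libraries (adjusted p 0.0676 to 0.125) and held without L+N library 1, H-N library 1 or H+N library 2. It was also lost with RLE scaling, with no filter, with the replicate block and without both libraries that stood apart (adjusted p 0.0518 to 0.0942), and held in DESeq2. Of the summed FPKM of the 5 laminin alpha chains, LAMA2 made up 20.2% ± 3.33 (SD, n = 3) in L-N, where L+N had 34.8% ± 7.45, H-N 34.4% ± 11.3 and H+N 40.3% ± 5.27.

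LAMA5, the main alpha chain of epithelial and endothelial basement membranes in adult tissue (gene 110257482, chromosome 17, bases 61698370 to 61747795), measured 160, 210 and 150 CPM in L-N and 143, 108 and 154 in L+N. It measured 124, 98.5 and 132 CPM in H-N and 90.4, 117 and 107 in H+N. All H-N and H+N libraries lay below all L-N libraries, and L+N overlapped with each of the other groups. H+N against L-N gave a log2 fold change of -0.73 (SE 0.181, adjusted p 0.0365). That call was lost without L-N library 2, L-N library 3, H+N library 1 or H+N library 3 (adjusted p 0.0816 to 0.109). The share of LAMA5 in the alpha chains was 21.7% ± 5.26 (SD, n = 3) in L-N, where L+N had 16.0% ± 4.41, H-N 15.3% ± 1.20 and H+N 11.9% ± 2.27. LAMA4, the chain of vessel and fat basement membranes, had the largest share of the alpha chains in each group, from 43.6% ± 6.10 in L+N to 49.1% ± 6.25 in L-N, and passed no test. LAMA3, of epithelial hemidesmosomes, and LAMA1 also passed none in edgeR's test on all libraries, and calls of LAMA3 under alternatives are given below. LAMA1 measured 26.0 CPM in L-N library 1 and between 1.18 and 8.42 in the other 11 libraries.

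**Figure D3:**
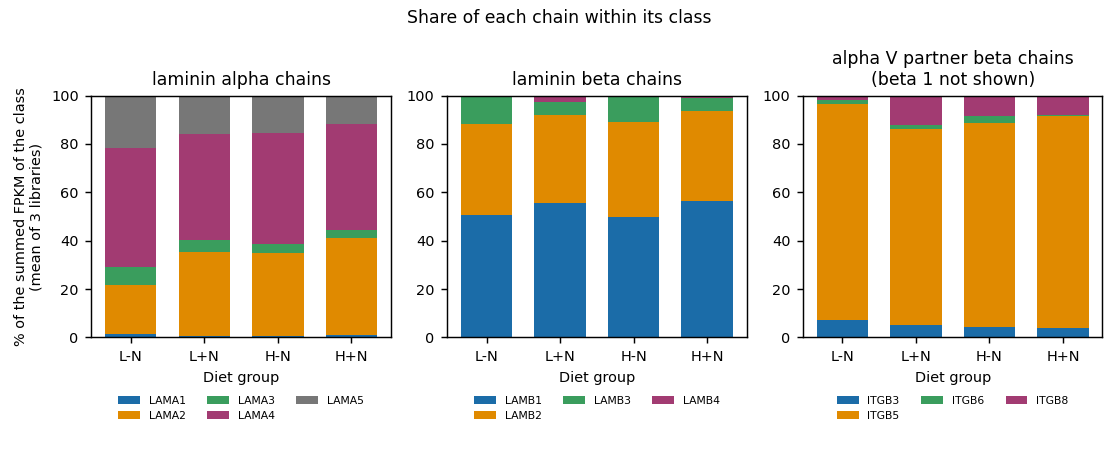
Share of each chain in the summed FPKM of its class, as percent and mean of 3 libraries per diet group, for the laminin alpha and beta chains and the beta chains other than beta 1 that pair with alpha V. LAMA2 has its smallest share in L-N at 20.2%, LAMB3 has shares of 5.75% and 5.49% in L+N and H+N, and ITGB8 has 1.79% in L-N.

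Among the laminin beta chains, LAMB3 is the beta chain of the laminin of epithelial anchoring sites, where it joins LAMA3 (gene 100736655, chromosome 9, bases 133298009 to 133351162). It measured 50.4, 46.2 and 43.3 CPM in L-N, 26.9, 21.7 and 26.0 in L+N, 39.2, 26.1 and 60.3 in H-N, and 14.6, 25.3 and 27.7 in H+N. The libraries with NCG were all below those of L-N, and H-N overlapped with each of the other groups. NCG as a mean over both fiber levels gave a log2 fold change of -0.90 (SE 0.204, adjusted p 0.0245), a call lost without L+N library 2 (adjusted p 0.0649) and kept in the other 11 fits that leave out a library. In H+N against L-N it was -1.05 (SE 0.289, adjusted p 0.0491). That call held only without H-N library 2 or H-N library 3 and was lost without any of the other 10 libraries (adjusted p 0.0596 to 0.126). In H+N against H-N the log2 fold change was -0.89, with an adjusted p of 0.474. LAMB3 held 11.5% ± 0.392 (SD, n = 3) of the summed FPKM of the beta chains in L-N, where L+N had 5.75% ± 1.23, H-N 11.02% ± 3.28 and H+N 5.49% ± 2.09. Its trimer partner LAMA3 had adjusted p-values above 0.05 in each comparison on all libraries. DESeq2 called LAMA3 lower in H+N against L-N and for fiber as a mean. Without H-N library 3, edgeR called it in H+N and in H-N against L-N, and without both libraries that stood apart in these and for fiber.

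LAMB1, the beta chain of most laminins (gene 396707, chromosome 9, bases 107670120 to 107747242), measured 257, 426 and 354 CPM in L-N, 340, 454 and 456 in L+N, 320, 277 and 345 in H-N, and 490, 305 and 434 in H+N. The 4 groups overlapped, and LAMB1 was called in no comparison. Its neighbour LAMB4 was among the least abundant members and rose with NCG as a mean over both fiber levels, with a log2 fold change of 3.03 (SE 0.812, adjusted p 0.0465). Leaving out 1 library gave values from 2.24, without H+N library 1, to 4.16, without L-N library 2. In H+N it measured 13.8, 3.04 and 0.797 CPM. The call was lost without any of 9 libraries (adjusted p 0.0514 to 0.125) and held without L-N library 1, L-N library 2 or H+N library 3.

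Neither LAMC1 nor LAMC3, the abundant gamma chains, was called. LAMC1, the gamma chain of most laminins (gene 100514785, chromosome 9, bases 124283668 to 124405967), measured 504, 480 and 547 CPM in L-N, 382, 419 and 460 in L+N, 483, 474 and 566 in H-N, and 485, 446 and 697 in H+N. L+N lay below L-N and H-N in all 3 libraries and overlapped with H+N, and the adjusted p was above 0.05 in each comparison. LAMC3 (gene 100157958, chromosome 1, bases 271004423 to 271071223) measured 187, 298 and 174 CPM in L-N, 364, 239 and 405 in L+N, 372, 202 and 174 in H-N, and 292, 224 and 514 in H+N. Its groups overlapped, with a coefficient of variation of 36.0% within groups.

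ITGB1 pairs with the alpha chains that bind laminin, collagen and fibronectin (gene 397019, chromosome 10, bases 56078393 to 56130608). It measured 1103, 1092 and 1135 CPM in L-N, 722, 842 and 791 in L+N, 762, 832 and 965 in H-N, and 995, 778 and 960 in H+N. All 9 libraries of the other groups lay below the 3 of L-N, and those 9 overlapped with one another. Its log2 fold change in L+N against L-N was -0.50 (SE 0.135, adjusted p 0.0419), and in H-N against L-N -0.38 (adjusted p 0.118). The call in L+N was lost without L-N library 2, L-N library 3, any of the L+N libraries, H-N library 2 or H+N library 1 (adjusted p 0.0542 to 0.143).

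The laminin receptors proper pair ITGA3, ITGA6 or ITGA7 with ITGB1, or ITGA6 with ITGB4. ITGA6 (gene 100158200, chromosome 15, bases 78504108 to 78591779) measured 352, 260 and 267 CPM in L-N, 367, 389 and 343 in L+N, 376, 399 and 571 in H-N, and 368, 397 and 365 in H+N. H-N and H+N lay above L-N in every library, while L+N overlapped with L-N. No comparison on all libraries called it in edgeR's test, and the smallest adjusted p was 0.0612, in H-N against L-N (log2 fold change 0.62). In that comparison ITGA6 was called by DESeq2 and without L-N library 1. Without both libraries that stood apart it was called in H+N, H-N and L+N against L-N and for fiber as a mean. ITGA7, the laminin receptor chain of muscle, fell in L+N against L-N by 0.79 on the log2 scale (adjusted p 0.0478). That call held only without L-N library 2 or H-N library 3 and was lost without any of the other 10 libraries, with a log2 fold change of -0.48 and an adjusted p of 0.0936 without L-N library 1, the library high in smooth muscle markers, and an adjusted p of at most 0.157. Among the 3 alpha chains, ITGA7 made up 23.1% ± 3.06 of the summed FPKM (SD, n = 3) in L-N, where L+N had 13.1% ± 2.22, H-N 13.9% ± 1.04 and H+N 15.5% ± 1.05.

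Of the collagen receptors, ITGA11 pairs with ITGB1 on fibroblasts and binds fibrillar collagen (gene 100520350, chromosome 1, bases 166186601 to 166311046). It measured 69.9, 144 and 124 CPM in L-N, 98.6, 89.4 and 70.1 in L+N, 41.9, 50.1 and 38.9 in H-N, and 60.7, 48.3 and 68.1 in H+N. All 6 high-fiber libraries lay below all 6 low-fiber libraries, although L-N library 1 at 69.9 and H+N library 3 at 68.1 were close. The log2 fold change was -1.37 in H-N (SE 0.246, adjusted p 0.0199) and -0.93 in H+N (SE 0.243, adjusted p 0.0419), both against L-N. Without L-N library 1 these were -1.62 and -1.18. The call in H-N was lost without L-N library 2, L-N library 3, H-N library 1 or H-N library 3 (adjusted p 0.0552 to 0.0949). The call in H+N held only without L-N library 1, L+N library 3 or H-N library 3 and was lost without any of the other 9 (adjusted p 0.0513 to 0.136). As a mean over both NCG levels the difference made by fiber was -0.96, with an adjusted p of 0.0576. ITGA1, ITGA2 and ITGA10, the other collagen receptor chains, passed no comparison in edgeR's test on all libraries. ITGA1 was called in H+N against L-N by DESeq2. Without H+N library 2, edgeR called it there and for NCG as a mean over both fiber levels.

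**Figure D4:**
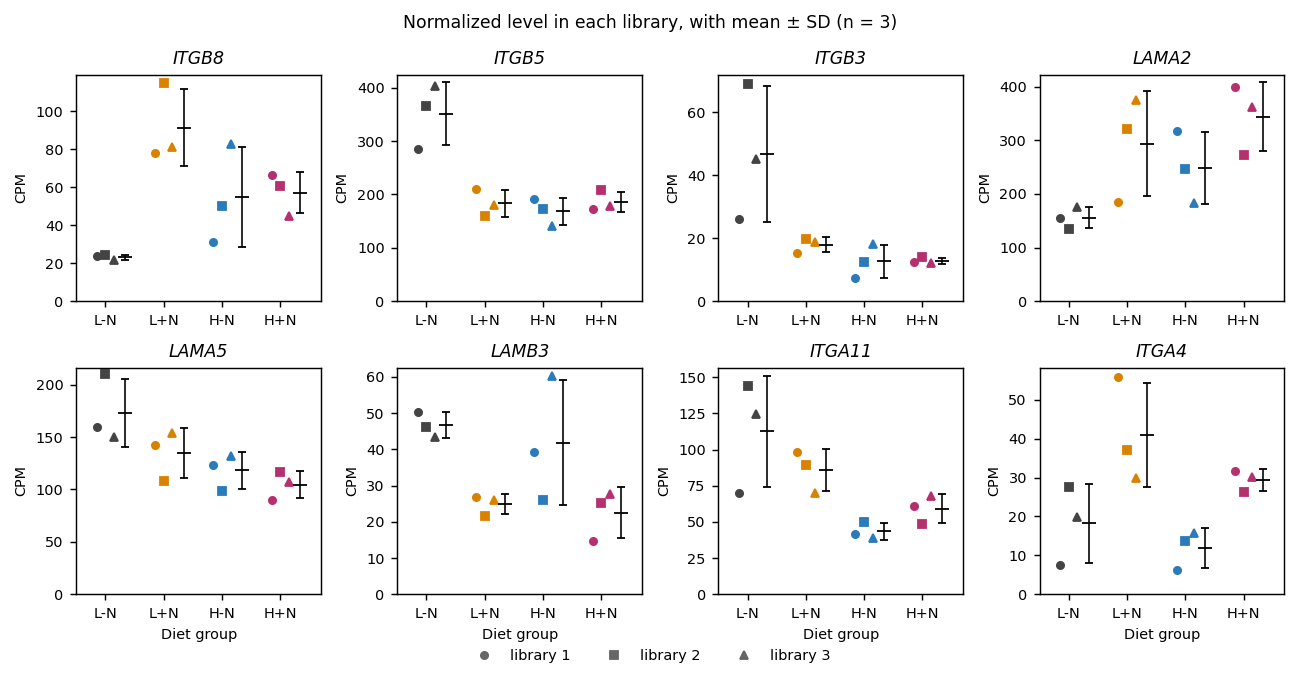
CPM in each library of 8 chain genes that passed a test, by diet group, with symbols for the library number and bars for mean and SD (n = 3). ITGB8 lies at 21.6 to 24.2 CPM in L-N and higher in all other libraries, while the highest ITGB5 value outside L-N is 210 CPM and the lowest in L-N 286.

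Among the receptors that bind the sequence Arg-Gly-Asp in fibronectin, vitronectin and latent TGF-beta, ITGB5, ITGB3 and ITGB8 were called in all 3 comparisons with L-N. Each of them pairs with ITGAV. ITGB8 binds latent TGF-beta and is expressed by epithelial and other cells (gene 100037284, chromosome 9, bases 89342245 to 89450701). It measured 23.7, 24.2 and 21.6 CPM in L-N, 77.8, 115 and 81.3 in L+N, 31.1, 50.3 and 82.8 in H-N, and 66.2, 60.4 and 44.9 in H+N. Every library of the other groups was above all of L-N, L+N was above H+N, and H-N overlapped with both. The log2 fold change against L-N was 1.98 in L+N (SE 0.306, adjusted p 0.00818), 1.30 in H+N (SE 0.302, adjusted p 0.0302) and 1.24 in H-N (SE 0.301, adjusted p 0.0413). As a mean over both fiber levels, NCG gave 1.02 (SE 0.211, adjusted p 0.0169). That mean joins 1.98 on the low-fiber diet with 0.06 on the high-fiber diet (H+N against H-N, SE 0.295, adjusted p 0.969), where it was not called. The calls in L+N and for NCG held in each of the 12 fits that leave out 1 library. The call in H+N was lost without L-N library 2, L-N library 3 or any of the H+N libraries (adjusted p 0.0518 to 0.114). The call in H-N held only without L-N library 1 or H+N library 3 and was lost without any of the other 10 (adjusted p 0.052 to 0.154). Without H-N library 3 the difference was 0.81.

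ITGB5, a vitronectin receptor chain of stromal and epithelial cells (gene 100134977, chromosome 13, bases 135468111 to 135587483), measured 286, 366 and 403 CPM in L-N, 210, 159 and 181 in L+N, 192, 173 and 141 in H-N, and 173, 208 and 178 in H+N. All 3 L-N libraries were above all 9 others, which overlapped. Its log2 fold change against L-N was -1.06 in H-N (SE 0.167, adjusted p 0.0179), -0.94 in L+N (SE 0.166, adjusted p 0.0107) and -0.91 in H+N (SE 0.166, adjusted p 0.0176), lower in 3 of 3 libraries each time. Without L-N library 3 the adjusted p was 0.0836 in H-N, 0.0525 in L+N and 0.0816 in H+N. The calls were also lost without H-N library 1 in H-N (0.0552), without L+N library 2 in L+N (0.0538) and without H+N library 1 in H+N (0.0658). Fitted on only the libraries of the comparison, the calls in H-N and H+N were lost and the call in L+N held.

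ITGB3, which with ITGAV binds osteopontin and vitronectin and with ITGA2B forms the platelet fibrinogen receptor (gene 397063, chromosome 12, bases 16694466 to 16752228), measured 26.0, 69.0 and 45.3 CPM in L-N and 15.2, 19.8 and 19.0 in L+N. It measured 7.46, 12.6 and 18.1 CPM in H-N and 12.4, 13.9 and 12.2 in H+N. L-N was above all other groups in every library, with L-N library 1 the nearest to them. The log2 fold change against L-N was -1.88 in H-N (SE 0.357, adjusted p 0.0232), -1.86 in H+N (SE 0.356, adjusted p 0.0193) and -1.38 in L+N (SE 0.35, adjusted p 0.0331). The call in H-N was lost without L-N library 2, L-N library 3, H-N library 1 or H-N library 2 (adjusted p 0.0553 to 0.0949). In H+N it was lost without L-N library 3, H+N library 1 or H+N library 3 (0.0563 to 0.0786). In L+N it was lost without L-N library 2, L-N library 3 or any of the L+N libraries (0.0853 to 0.108). A list of 7 platelet markers, of which 6 were found, summed to between 10.1 and 16.2 CPM in the 12 libraries, with GP9 the most abundant. Of those, 4 were tested, ITGA2B at 2.02 to 4.07 CPM among them, and none of the 4 was called in any comparison.

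ITGAV, the alpha partner of all of these (gene 397285, chromosome 15, bases 91604666 to 91711843), measured 246, 445 and 355 CPM in L-N, 328, 328 and 279 in L+N, 204, 216 and 290 in H-N, and 269, 242 and 237 in H+N. Its groups overlapped, except that L+N and H+N were apart, and no comparison called it. ITGA8, a receptor chain for nephronectin on mesenchymal cells (gene 100512676, chromosome 10, bases 46132887 to 46303659), measured 314, 230 and 291 CPM in L-N, 179, 167 and 186 in L+N, 234, 230 and 164 in H-N, and 245, 162 and 253 in H+N. L+N was below L-N in every library, and the adjusted p there was 0.0573. In that comparison ITGA8 was called by DESeq2, on only the libraries of the comparison and without H-N library 3 or H+N library 2. Of the summed FPKM of the beta chains other than beta 1 that pair with ITGAV, ITGB5 held 89.1% ± 3.47 (SD, n = 3) in L-N, where L+N had 81.1% ± 4.70, H-N 84.7% ± 9.42 and H+N 87.6% ± 1.74. The share of ITGB8 was 1.79% ± 0.409 in L-N, where L+N had 12.2% ± 3.59, H-N 8.34% ± 4.31 and H+N 8.01% ± 1.57. ITGB6, an epithelial chain that binds latent TGF-beta, was not called, nor was ITGA5, the fibronectin receptor chain. ITGA5 measured 122, 123 and 125 CPM in L-N and 63.0, 64.5 and 76.6 in L+N, without overlap (log2 fold change -0.86, SE 0.323, adjusted p 0.112). In that comparison it was called by DESeq2, with the replicate number as a block, on only the libraries of the comparison and without H+N library 3.

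ITGA4, which binds VCAM1 and fibronectin on leukocytes and some stromal cells (gene 100521477, chromosome 15, bases 86942054 to 87028428), measured 7.45, 27.5 and 19.9 CPM in L-N, 55.8, 37.2 and 29.9 in L+N, 6.22, 13.7 and 15.8 in H-N, and 31.6, 26.3 and 30.1 in H+N. L+N was above L-N and H+N was above H-N in every library, and L-N overlapped with H-N and, through library 2, with H+N. As a mean over both fiber levels the log2 fold change with NCG was 1.24 (SE 0.311, adjusted p 0.0368). It was 1.16 on the low-fiber and 1.31 on the high-fiber diet, neither of them called in edgeR's test on all libraries. DESeq2 called the difference on the low-fiber diet. The call for NCG as a mean was lost without L-N library 3, L+N library 1, L+N library 2, H-N library 1, H-N library 2, H+N library 1 or H+N library 3 (adjusted p 0.0568 to 0.0788). Its relative ITGA9 passed no test.

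The leukocyte chains ITGAL, ITGAM and ITGAD pair with ITGB2, and ITGAE with ITGB7. ITGB2 (gene 396943, chromosome 13, bases 207514281 to 207544108) measured 45.7, 113 and 108 CPM in L-N, 70.9, 53.7 and 48.3 in L+N, 41.3, 40.5 and 35.3 in H-N, and 48.6, 52.4 and 49.0 in H+N. H-N lay below every L-N library, while L+N and H+N both overlapped with L-N through L-N library 1. The log2 fold change in H-N against L-N was -1.19 (SE 0.279, adjusted p 0.0374). It was -1.50 without L-N library 1. The call was lost without L-N library 2, L-N library 3, L+N library 2, any of the H-N libraries or H+N library 1 (adjusted p 0.0524 to 0.147).

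ITGAM, the alpha chain of complement receptor 3 on macrophages and neutrophils (gene 397459, chromosome 3, bases 17216719 to 17272134), measured 47.5, 99.8 and 160 CPM in L-N, 66.0, 58.5 and 20.8 in L+N, 20.5, 24.8 and 18.5 in H-N, and 45.4, 48.1 and 16.7 in H+N. H-N was below L-N in every library, and L+N and H+N overlapped with L-N. The log2 fold change in H-N against L-N was -2.27 (SE 0.532, adjusted p 0.0372), and -2.61 without L-N library 1. The call was lost without L-N library 2, L-N library 3, L+N library 1, L+N library 2, any of the H-N libraries or H+N library 1 (adjusted p 0.0502 to 0.147).

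ITGAD, a macrophage chain (gene 100626336, chromosome 3, bases 17136161 to 17169776), measured 22.5, 72.5 and 71.2 CPM in L-N, 16.9, 12.6 and 24.1 in L+N, 3.89, 12.1 and 2.97 in H-N, and 15.9, 18.9 and 2.27 in H+N. L-N was above H-N and H+N in every library, and L-N library 1 fell within the range of L+N. H-N against L-N gave a log2 fold change of -3.14 (SE 0.761, adjusted p 0.0409), and -3.52 without L-N library 1. The call held only without L-N library 1, H+N library 2 or H+N library 3 and was lost without any of the other 9 (adjusted p 0.0507 to 0.138). ITGAL, the lymphocyte chain, measured 42.0, 100 and 75.1 CPM in L-N and 33.2 to 61.7 in the other groups and was not called, nor were ITGB7 and ITGAE. DESeq2 called ITGB2, ITGAM and ITGAD in H+N against L-N, as did edgeR without L-N library 1 and without both libraries that stood apart. ITGAL was called in H-N against L-N by DESeq2 and without L-N library 1. Without L-N library 1, ITGB2 and ITGAL were also called in L+N against L-N.

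Macrophage markers are given beside these chains. The summed CPM of 10 macrophage markers was 1409, 3547 and 3683 in L-N, 1684, 1598 and 1192 in L+N, 988, 1063 and 732 in H-N, and 1421, 1439 and 1134 in H+N. L-N library 1 lay within the range of the other groups, and the other 2 L-N libraries lay above all of them. C1QC was the most abundant of the list, at 334, 774 and 837 CPM in L-N and 174 to 429 elsewhere. Of the 10 markers, 7 fell in H-N, 4 in H+N and 2 in L+N against L-N, and none of them was at 0 in all libraries. In bulk tissue, fewer cells of a type and less RNA per cell cannot be told apart, and the part of macrophages in the values of the leukocyte chains was not tested. The T and NK cell list summed to between 76.1 and 279 CPM, with its lowest value in L-N library 1 and its highest in L-N library 2, and none of its genes was called in any comparison.

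**Figure D5:**
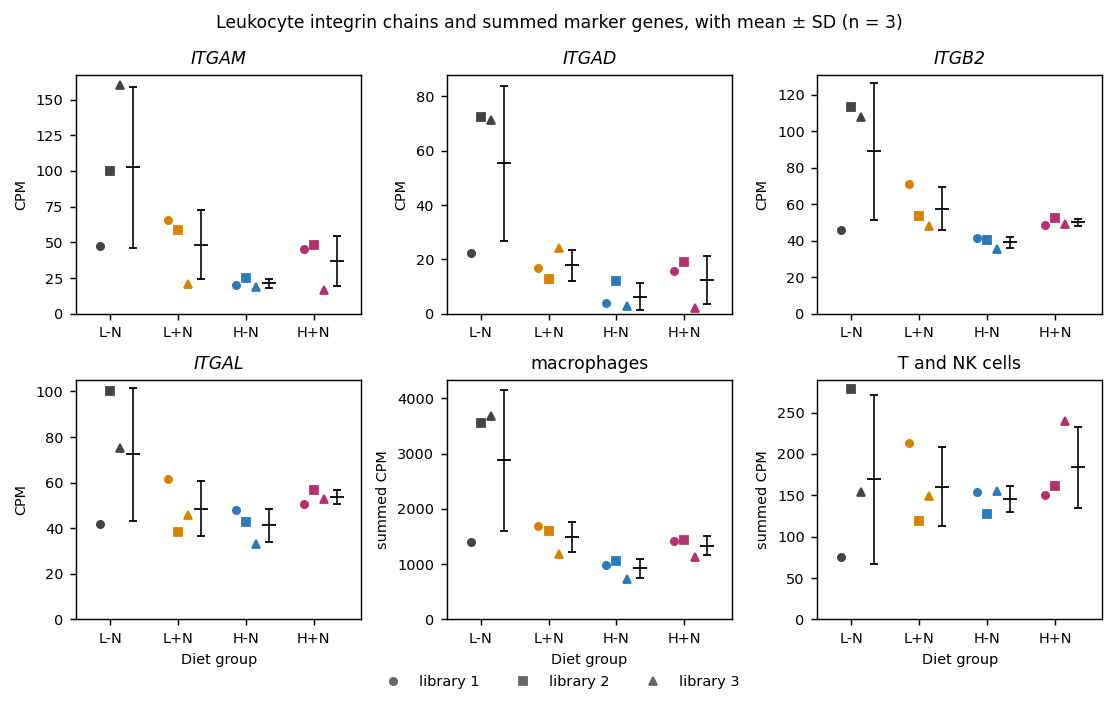
CPM of ITGAM, ITGAD, ITGB2 and ITGAL in each library, and summed CPM of the macrophage and the T and NK cell marker lists, by diet group, with symbols for the library number and bars for mean and SD (n = 3). L-N libraries 2 and 3 stand above all other libraries in ITGAM, ITGAD, ITGB2, ITGAL and the macrophage sum, and L-N library 1 does not.

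The comparisons of H+N with H-N and with L+N had no call. In H+N against H-N, which asks what NCG did on the high-fiber diet, edgeR's quasi-likelihood test called 0 members and 0% of all genes tested. There, 5 members (13.5%) had an unadjusted p under 0.05, beside 8.67% of all genes. The smallest adjusted p was 0.474, for LAMB3, and DESeq2 called 0 members and 47 genes in all. In H+N against L+N, which asks what fiber did with NCG in both diets, edgeR again called 0 members and 0% of all genes. Unadjusted p was under 0.05 for 4 members (10.8%), beside 4.68% of all genes. The smallest adjusted p was 0.91, and DESeq2 called 0 members and 2 genes in all.

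For fiber as a mean over both NCG levels, the mean of both high-fiber groups minus that of both low-fiber groups, edgeR's test called 0 members, beside 0.0521% of all genes. At an unadjusted p under 0.05 there were 12 members (32.4%), 2 higher and 10 lower, beside 19.5% of all genes. The smallest adjusted p-values were 0.0576 for ITGA11, 0.0678 for ITGB3 (log2 fold change -1.19) and 0.0755 for ITGB5 (-0.52). The median was -0.08 over the members and 0.02 over all genes. DESeq2 called 9 members and 1123 genes in all. Without L-N library 1, edgeR called 7 members and 6.99% of all genes, and without L-N library 1 and H-N library 3 together 9 members and 8.14% of all genes.

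The interaction asks whether the difference made by NCG was the same at both fiber levels, and is computed as (H+N minus H-N) minus (L+N minus L-N). In edgeR's test 0 members and 0% of all genes passed at an adjusted p under 0.05. At an unadjusted p under 0.05 there were 14 members (37.8%), 12 positive and 2 negative, where 12.8% of all genes had such a p. The median was 0.23 over the members and -0.01 over all genes. ITGB5 had a value of 1.09 (SE 0.234, unadjusted p 0.000678) and ITGB8 of -1.91 (SE 0.421, unadjusted p 0.000793), both with an adjusted p of 0.253. Next was ITGB1 with 0.59 (SE 0.191, unadjusted p 0.00969, adjusted p 0.287). DESeq2 called 2 members, ITGB5 and ITGB8, among 298 genes. Leaving out L-N library 1 gave 3 members in edgeR's test, ITGA11, ITGB2 and ITGB5, beside 2.81% of all genes, and leaving out both libraries that stood apart also gave 3, beside 2.67%.

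The partners of the chains were followed in 4 lists. Of 26 other basement membrane genes, all tested, 1 (3.85%) rose in L+N against L-N and for NCG as a mean over both fiber levels, where 5.97% and 5.67% of all genes were called higher. It was FREM2, a protein that joins epithelial basement membranes to the tissue below, with mean CPM of 23.05 ± 14.2 (SD, n = 3) in L-N, where L+N had 93.1 ± 28.4, H-N 45.2 ± 21.2 and H+N 67.4 ± 11.3. Its log2 fold change was 2.01 in L+N (SE 0.474, adjusted p 0.0252) and 1.29 for NCG (SE 0.328, adjusted p 0.0375). SPARC and COL4A1, the most abundant of the list at 1351 and 196 FPKM, were not called. COL4A1, a chain of the collagen network of basement membranes, measured 1512 ± 334 CPM (SD, n = 3) in L-N, where L+N had 842 ± 197, H-N 1313 ± 878 and H+N 1425 ± 1088.

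Of 28 soluble and matrix ligands of integrins, 25 were found and 22 tested. Against L-N, 2 fell in H+N, 6 fell and 1 rose in H-N, and 3 fell in L+N, and for NCG as a mean over both fiber levels 1 rose. The genes that fell were 9.09%, 27.3% and 13.6% of those tested in H+N, H-N and L+N, where 3.66%, 3.71% and 3.63% of all genes were called lower. The 1 that rose for NCG was 4.55%, beside 5.67% of all genes called higher. Medians of the list were -0.29, -0.52 and -0.56 on the log2 scale, and those of all genes 0.02, 0.03 and -0.02. FBLN5, an elastic fiber protein that binds integrins, measured 300.1 ± 43.3 CPM (SD, n = 3) in L-N, where L+N had 158 ± 6.20, H-N 158 ± 44.8 and H+N 167 ± 29.0, and fell in all 3 (log2 fold change -0.84 in H+N, adjusted p 0.0346, -0.93 in H-N, 0.033, and -0.92 in L+N, 0.0212). TGFB1, whose latent form is held by ITGB6 and ITGB8 receptors, measured 163 ± 57.3 CPM in L-N, where L+N had 96.1 ± 10.6, H-N 75.7 ± 7.24 and H+N 89.6 ± 11.8. It fell by 1.11 on the log2 scale in H-N (adjusted p 0.0279) and by 0.87 in H+N (adjusted p 0.0441), and had an adjusted p of 0.0578 in L+N. LRRC32, a cell surface anchor of latent TGF-beta, fell in L+N (-0.80, adjusted p 0.0174) and in H-N (-0.65, adjusted p 0.0488). MFGE8, a bridging ligand of alpha V receptors, fell in L+N (-0.84, adjusted p 0.0266). The 1 that rose in H-N was NPNT, nephronectin, the ligand of ITGA8 (log2 fold change 2.01, adjusted p 0.0349), and the 1 that rose for NCG was TNXB, a matrix protein (0.63, adjusted p 0.0444). Both are named after their values were seen.

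Of 12 ligands of leukocyte integrins, 11 were found and 10 tested. JAM3, a junctional ligand of ITGAM, measured 200 ± 70.2 CPM (SD, n = 3) in L-N, where L+N had 95.3 ± 2.12, H-N 98.1 ± 6.79 and H+N 117 ± 21.7. It fell in L+N (log2 fold change -1.07, adjusted p 0.0193) and in H-N (-1.03, adjusted p 0.0339). CDH1, the epithelial cadherin that ITGAE binds, rose in H-N against L-N (0.83, adjusted p 0.0279), from 446 ± 25.3 to 792 ± 220.3 CPM. The other 8 tested were called in no comparison. With 10 genes tested, each call is 10% of the list, beside 1.56% of all genes called higher in H-N and 3.71% and 3.63% called lower in H-N and L+N.

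Among 38 adaptors and kinases of integrin adhesions, all tested, 2 fell in H+N, 7 in H-N and 6 in L+N against L-N, and 1 for NCG as a mean over both fiber levels, while 0 rose. Those that fell were 5.26%, 18.4% and 15.8% of the list against L-N and 2.63% for NCG, beside 3.66%, 3.71%, 3.63% and 1.6% of all genes called lower. Medians of the list were -0.32, -0.31 and -0.36 in H+N, H-N and L+N, and those of all genes 0.02, 0.03 and -0.02. VCL, vinculin, which ties talin to actin, measured 557 ± 39.1 CPM (SD, n = 3) in L-N, where L+N had 311 ± 20.0, H-N 310.3 ± 20.8 and H+N 364 ± 47.6. It fell in all 3 comparisons, with log2 fold changes of -0.84 in L+N (adjusted p 0.00818), -0.84 in H-N (adjusted p 0.0162) and -0.61 in H+N (adjusted p 0.0225). RSU1, of the complex of integrin-linked kinase, measured 111 ± 12.8 CPM in L-N and 70.0 ± 5.44, 78.8 ± 5.93 and 81.4 ± 6.42 in L+N, H-N and H+N. It fell in the same 3 comparisons (L+N -0.66, adjusted p 0.0108; H-N -0.49, adjusted p 0.0401; H+N -0.44, adjusted p 0.0444). TGFB1I1, a focal adhesion scaffold of smooth muscle and stromal cells, fell in L+N (-0.88, adjusted p 0.00818) and H-N (-0.75, adjusted p 0.0233), and LIMS1, which binds integrin-linked kinase, in H-N (-0.76, adjusted p 0.0194).

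Over the 4 partner lists together, 4 genes were called in H+N, 16 in H-N and 11 in L+N against L-N and 3 for NCG. Of the 96 partner genes tested these were 4.17%, 16.7%, 11.5% and 3.13%, beside 7.97%, 5.27%, 9.6% and 7.27% of all genes. Leaving out 1 library moved these counts, which follow without the share of all genes called in each fit. The count in H+N was 15 without L-N library 1 and 9 without H-N library 3. It was 2 without H-N library 1, H-N library 2 or H+N library 3, 1 without L-N library 2 or any of the L+N libraries, and 0 without L-N library 3 or H+N library 1. The count in H-N was 0 without L-N library 3 or H-N library 1, 2 without L-N library 2, 3 without H-N library 3, 5 without H-N library 2, 8 without L+N library 1 or L+N library 3, and 9 without L+N library 2 or H+N library 1. The count in L+N was 2 without L-N library 3 or L+N library 2 and 4 without L+N library 1 or L+N library 3. The count for NCG was 7 without L-N library 1, 1 without L+N library 1 or H+N library 2, and 0 without L-N library 3, L+N library 2, L+N library 3, H-N library 1, H-N library 2 or H+N library 1. For fiber as a mean and for the interaction edgeR's test called 0 partner genes. Of the 96, 26 and 25 had an unadjusted p under 0.05, beside 19.5% and 12.8% of all genes. DESeq2 called 13 and 10, and edgeR without L-N library 1 called 10 and 9. The calls over all genes in these fits are given above with the members.

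Marker lists of the cell types that endometrium can hold gave the following values beside the members. Epithelial markers, led by CDH1, summed to 1517, 1616 and 1091 CPM in L-N, 1581, 1664 and 1641 in L+N, 2013, 1667 and 2518 in H-N, and 1323, 1478 and 1345 in H+N. H-N was above the other groups in every library, though H-N library 2 at 1667 and the highest of L+N at 1664 were close, and in H-N against L-N 2 of 11 epithelial markers rose, CDH1 and GRHL2. GRHL2 also rose in L+N against L-N. Stromal markers, led by COL3A1, summed to between 27008 and 62172 CPM, with a mean of 30994 in L-N, where L+N had 37933, H-N 45787 and H+N 47802. Both high-fiber groups lay above L-N in every library, and L+N overlapped with all groups. Of the 10 stromal markers, 6 had a positive log2 fold change in H+N, 5 in H-N and 7 in L+N against L-N, and none was called higher. VIM was called lower in all of these comparisons and THY1 in H-N. Endothelial markers, led by VWF, summed to 1836, 1260 and 1546 CPM in L-N and 1095, 894 and 1071 in L+N. Their sums were 1225, 1288.5 and 1301 CPM in H-N and 1114, 1390 and 1042 in H+N, and both of these groups overlapped with L-N. Of the 10 endothelial markers, 2 fell in L+N against L-N, PECAM1 and CDH5, and PECAM1 also fell in H+N against L-N and for NCG as a mean over both fiber levels. Of the 10 smooth muscle markers, 2 fell in L+N against L-N, TAGLN and ACTA2, and the sum outside L-N lay between 1177 and 2031 CPM. Their part in the member values was not tested.

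Markers of dividing cells, led by MKI67, summed to 94.2, 201 and 70.2 CPM in L-N, 370.3, 407 and 500.4 in L+N, 210, 226 and 264 in H-N, and 338, 378 and 450.3 in H+N. Both NCG groups lay above both groups without NCG in every library. Of the 10 markers, 8 rose in H+N, 9 in L+N and 1 in H-N against L-N, and 9 for NCG as a mean over both fiber levels. Their part in the values of ITGB8, ITGA4, LAMA2, LAMB4 and LAMB3 was not tested.

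The label of the tissue was compared with defining genes. Of 10 endometrium genes, 9 were found, and their sum was 1010 to 2250 CPM, led by ESR1. ESR1, HOXA10 and PGR rose and ACP5, uteroferrin, fell in H+N against L-N. Trophoblast was followed with 8 genes, of which 6 were found. PAG6 and CYP19A1 of that list were at 0 in all libraries. The list summed to 25.7 to 49.1 CPM, most of it from a gene on chromosome 4 named PAG1 in the table, which is not the pregnancy-associated glycoprotein of that name. ELF5 was called higher in H+N against L-N (log2 fold change 1.59, adjusted p 0.0432), with means of 0.755 ± 0.293 CPM (SD, n = 3) in L-N and 2.29 ± 0.610 in H+N. Basal epithelium, led by TP63, summed to 1.41 to 15.0 CPM, lymphatic endothelium, led by CCL21, to 60.5 to 351, and neutrophils, led by CSF3R, to 5.98 to 174. In H-N library 3, TP63 made up only 0.759 CPM of a basal epithelium sum of 14.2. B and plasma cell markers, led by JCHAIN, summed to 117 to 805 CPM, and Schwann cell markers, led by S100B, to 26.4 to 84.0. The Schwann cell sums of the L-N libraries, 84.0, 64.6 and 72.8 CPM, lay above those of all 9 others, of which the highest was 59.7. Of the 4 Schwann cell markers tested, 1 was called lower in H-N against L-N. The part of these cells in the member values was not tested.

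The 23 members called in no comparison had log2 fold changes against L-N from -2.45 (ITGB6) to 0.69 (ITGA1) in H+N, from -1.83 (LAMA1) to 0.62 (ITGA6) in H-N and from -1.63 (LAMA1) to 0.61 (LAMC3) in L+N. The smallest adjusted p-values among them were 0.0637, 0.0612 and 0.0573. ITGB6 measured 8.15, 25.3 and 8.40 CPM in L-N and 2.83, 3.26 and 1.53 in H+N, groups that did not overlap, and its adjusted p there was 0.079. In that comparison it was called by DESeq2, without H-N library 3 and without both libraries that stood apart. For NCG as a mean over both fiber levels it was called by DESeq2 and without H-N library 2. Without both libraries that stood apart it was also called in H-N against L-N and for fiber as a mean.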

How the data were processed

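The deposited table gives read counts and FPKM per gene for 12 libraries of polyA RNA. Per the submitters' processing notes, the authors used fastp 0.22.0, HISAT2 2.1.0 and HTSeq 0.9.1 with build Sscrofa11.1, and the gene coordinates are those of the deposited table. The deposited FPKM equals the deposited count divided by gene length and library total, within 1.9e-05 percent, and serves here for levels between genes.

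From the counts, edgeR 4.0.16 (R 4.3.3, limma 3.58.1) kept 15351 of 20674 genes with filterByExpr by group, scaled libraries by TMM and fitted 1 mean per group, with a common biological coefficient of variation of 0.269 and 8 residual degrees of freedom. Then 8 contrasts were tested with the quasi-likelihood test, Benjamini-Hochberg adjustment over all genes tested and a threshold of 0.05. The standard error is the absolute log2 fold change divided by the square root of F. CPM are counts relative to the TMM-scaled library size, and the principal component analysis used log2 CPM with a prior count of 2. In 3 simulations with 200 genes changed by 2 on the log2 scale in H+N, the fit found 168, 158 and 147 of them against L-N, all with the right sign, with 9, 13 and 2 false calls, and made 0 false calls in H-N against L-N.

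Members were given in full when they passed any of the 8 contrasts (the 12 with the smallest adjusted p), when the paper names them (LAMA2, LAMB3, ITGB8), or when they were among the 3 laminin and 5 integrin chains with the highest mean FPKM. LAMB4 and ITGA7 are given by log2 fold change and adjusted p. Of each partner list, up to 4 genes with the smallest adjusted p under 0.05 are named, and the 2 with the highest mean FPKM where fewer than 2 passed. The members and all lists of partner and marker genes were chosen with earlier results of these data known.

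Alternatives were DESeq2 1.42.0 on the same libraries and genes, RLE scaling, no filter, the replicate number as a block, an added threshold of 1 on the absolute log2 fold change, a fit on only the libraries of a contrast, TPM in place of FPKM, and leaving out each library. After the data were seen, leaving out L-N library 1 and H-N library 3 together and running all alternatives on the partner genes were added. The T and NK cell list has 13 names and 14 genes, since GZMA stands for 2 genes of the table. All 20674 genes matched the RefSeq table by gene ID. The values of 1 member and 1 marker gene are not reported here, though both count in the totals.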

Additional observations from a re-analysis of the deposited data

How the results depend on the processing

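Of 427 values of called members under the alternatives, 260 kept their direction and stayed under the threshold, 167 kept their direction and lost it, and 0 reversed. Ranks of the members by TPM were those by FPKM. Member counts (H+N, H-N and L+N against L-N, then NCG and fiber as means, then interaction) were 7, 7, 5, 5, 0 and 0. Beside them, 7.97%, 5.27%, 9.6%, 7.27%, 0.0521% and 0% of all genes tested were called. The member counts were 13, 11, 10, 7, 9 and 2 by DESeq2, and 6, 7, 3, 4, 0 and 0 with no filter. With the fold threshold they were 4, 7, 2, 3, 0 and 0, and with the replicate block 3, 3, 4, 2, 0 and 0. Replicate numbers were not taken to pair samples across groups in the main fit. Of 18 pairs of libraries with the same number, 3 had a correlation above 0.1, in a range from -0.32 to 0.28. With 3 libraries per group, such correlations cannot settle whether the numbers stand for a pairing. On only the libraries of the contrast the first 3 counts were 1, 0 and 7. NCG, fiber and interaction use all libraries and have no such value. RLE scaling gave 7, 7, 5, 4, 0 and 0. Without L-N library 1 and H-N library 3 together, chosen after seeing the data, they were 15, 11, 8, 4, 9 and 3. Leaving out each library gave 0 to 10, 0 to 10, 1 to 8, 1 to 6, 0 to 7 and 0 to 3. In H+N against H-N and H+N against L+N every setting gave 0 members. Partner gene counts, in the same order, were 4, 16, 11, 3, 0 and 0. Their alternatives were also chosen after seeing the data. DESeq2 gave 22, 26, 21, 8, 13 and 10, and 1 in H+N against H-N. The fold threshold gave 0, 6, 2, 1, 0 and 0, the replicate block 2, 5, 10, 1, 0 and 0, and only the libraries of the contrast 0, 0 and 13. Without both libraries that stood apart they were 21, 20, 21, 6, 13 and 7, and leaving out each library gave 0 to 15, 0 to 20, 2 to 16, 0 to 7, 0 to 10 and 0 to 9. Apart from the first member counts, counts in this section stand without the shares of all genes called in the same fits. They do not tell a change in the members or partner genes from a change over all genes. The cause of these differences was not tested.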
